A study of Mus musculus with 8 samples.

Results

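RNA-seq of C3H10T1/2 cells, a mouse embryonic mesenchymal cell line that can be driven toward bone, cartilage or fat cells, was read for a set of Notch pathway genes. These were taken by gene symbol from the deposited expression table, 10 of its 18605 genes, and comprised the receptors *Notch1*, *Notch2* and *Notch3*, the ligands *Jag1* and *Dll1*, the DNA-binding partner *Rbpj*, and the targets *Hes1*, *Hey1*, *Hey2* and *Heyl*. The set was chosen with earlier results of these data known, so its shares beside all genes are descriptions and not tests. The study delivered its shRNAs by lentivirus. The knockdown cells (KD-Nap1l2) carried an shRNA against *Nap1l2*, a gene for a histone chaperone of the nucleosome assembly protein family. The paper calls the control cells (NC) a non-target control, and normal cells in its RNA-seq methods. Infection of the sequenced NC cells is not stated there. NC and KD-Nap1l2 cells were sequenced without induction (day 0), and NC-7d and KD-Nap1l2-7d cells after 7 days in osteogenic medium with dexamethasone, ascorbic acid and β-glycerol phosphate. Each group had 2 libraries, for which the labels name no separate cultures, so a p-value here measures only the spread between these libraries, which may be technical.

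Notch receptors sit at the cell surface and are activated by Jagged and Delta ligands on neighbouring cells, after which γ-secretase frees the intracellular domain. That domain enters the nucleus and joins Rbpj and a Mastermind protein, and the complex switches on targets among which the Hes and Hey repressors are the best known. In mesenchymal cells the pathway is known both for holding progenitors back from becoming osteoblasts and for the making of vessel-wall cells, in which *Notch3* is prominent.

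The 8 libraries held 17420284 to 19427359 estimated counts, and 13470 genes had enough counts for the test. *Nap1l2* itself had 3 and 3 counts in NC, 2 and 7 in KD-Nap1l2, 15 and 5 in NC-7d, and 7 and 13 in KD-Nap1l2-7d, so the knockdown could not be checked at this depth. The grouping rests on the labels of the libraries, in which NC is written Ctrl. Between the libraries of a group, 3.68% of the tested genes lay over 2-fold apart in NC, 7.16% in KD-Nap1l2, 7.35% in NC-7d and 2.54% in KD-Nap1l2-7d. Of the 10 mesenchymal markers examined, all but *Thy1* (0.59 to 5.79 FPKM) were above 1 FPKM in every library, whereas 7 of 10 endothelial markers, *Pecam1*, *Cdh5* and *Kdr* among them, stayed under 1 FPKM everywhere. Of the remaining endothelial markers, *Tek* reached 1.27 FPKM and *Vwf* 2.1 FPKM. *Flt1* had 1.81 to 3.66 FPKM in the uninduced and 5.82 to 7.41 in the induced libraries. Of 10 osteoblast markers, *Sp7*, *Alpl* and *Ibsp* stayed under 1 FPKM in every library, the induced ones included. *Runx2*, the early osteoblast regulator, was at 10.5 to 16.0 FPKM, and the matrix gene *Spp1* had 1067 to 1275 FPKM in the uninduced and 1469 to 3683 in the induced libraries, whereas *Sparc*, another matrix gene, had 1186 to 1690.1 and 605 to 795.

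Promoter windows of the reference (RefSeq, GRCm38.p6), covering 250 bases before and 50 after a start site, were given for 7 of the 10 genes in 9 windows. They were searched on both strands for TGGGAA, the core of the motif that Rbpj binds, which 25.6% of all 32851 windows of this length hold. It was found in both windows of *Rbpj* and in that of *Hey2*, and in none of those of *Notch1*, *Notch2*, *Notch3*, *Jag1* and *Dll1*. The windows of *Rbpj* overlap, and the match in the second is a site that also lies in the first. The longer form GTGGGAA, which contains the core, is held by 6.38% of all windows and was found only in that of *Hey2* among the 9. The 250 bases upstream of the start are shown for *Rbpj* and *Hey2*, which hold matches, and for *Notch3* and *Jag1*, the receptor and the ligand whose levels differed most between groups. They are written 5′ to 3′ on the strand of the gene, with capitals for the core in *Rbpj* (TTCCCA is its reverse complement) and for the longer form in *Hey2* (TTCCCAC is its reverse complement), where the last 4 capitals begin a match that runs on past the start site.
Rbpj, chr5:53590096-53590345, + strand: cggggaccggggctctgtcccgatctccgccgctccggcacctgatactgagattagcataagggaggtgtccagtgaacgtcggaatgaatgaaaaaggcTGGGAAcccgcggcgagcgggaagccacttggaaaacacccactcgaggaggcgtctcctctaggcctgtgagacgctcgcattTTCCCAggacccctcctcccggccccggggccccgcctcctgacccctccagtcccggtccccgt
Hey2, chr10:30842784-30843033, − strand: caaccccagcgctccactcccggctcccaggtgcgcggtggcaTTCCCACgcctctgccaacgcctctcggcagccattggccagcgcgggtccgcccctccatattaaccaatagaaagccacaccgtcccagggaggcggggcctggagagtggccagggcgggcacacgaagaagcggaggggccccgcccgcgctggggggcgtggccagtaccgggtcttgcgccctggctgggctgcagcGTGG
Notch3, chr17:32166891-32167140, − strand: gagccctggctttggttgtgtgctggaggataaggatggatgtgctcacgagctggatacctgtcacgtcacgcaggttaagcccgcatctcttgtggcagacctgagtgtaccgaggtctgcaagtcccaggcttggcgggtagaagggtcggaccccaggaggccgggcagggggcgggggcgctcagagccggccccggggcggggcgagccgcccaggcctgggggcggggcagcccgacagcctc
Jag1, chr2:137116521-137116770, − strand: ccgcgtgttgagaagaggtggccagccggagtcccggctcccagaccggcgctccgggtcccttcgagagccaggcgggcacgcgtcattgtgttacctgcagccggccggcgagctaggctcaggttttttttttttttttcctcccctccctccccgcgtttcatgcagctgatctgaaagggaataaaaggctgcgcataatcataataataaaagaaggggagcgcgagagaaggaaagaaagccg
In *Rbpj* the matches began 149 and 65 bases before the start site of the window shown. That start site lies inside the span of the gene, which begins at chr5:53555779. CACGNG, a site of Hes and Hey type repressors that 27.5% of all windows hold, occurred in the windows of *Notch2*, *Notch3*, *Jag1* and *Dll1*. These matches are letters in a window, and binding was not measured.

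The genes themselves lie, on GRCm38.p6, at chr2:26457902-26503822 (*Notch1*), chr3:98013538-98150367 (*Notch2*), chr17:32120820-32166896 (*Notch3*), chr2:137081451-137116520 (*Jag1*), chr17:15367354-15376932 (*Dll1*), chr5:53555779-53657445 (*Rbpj*), chr16:30065357-30067796 (*Hes1*), chr3:8663359-8667038 (*Hey1*), chr10:30832359-30842783 (*Hey2*) and chr4:123233556-123249870 (*Heyl*). In GENCODE vM21, exons of antisense genes overlap those of *Notch1*, *Notch3* and *Dll1*, and a gene on the same strand overlaps *Notch2*. None of these has a row of its own in the table and the counting is not stated to use strand, so reads of the overlaps cannot be told apart.

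At the level of FPKM, which is scaled to gene length and so allows genes to be compared, the cells held 3 receptors, 1 ligand and 1 target in quantity. *Rbpj* had 19.2 to 67.1 FPKM over the 8 libraries and *Hes1* 12.04 to 25.15 FPKM. *Rbpj* was the highest of the 10 in 7 libraries, but in NC-7d library 2 it had 19.2 FPKM beside 23.45 for *Hes1*, and in KD-Nap1l2 *Jag1* (17.1 and 13.5 FPKM) lay above *Hes1* (15.66 and 12.04 FPKM). *Notch1* (8.40 to 16.2 FPKM), *Jag1* (5.68 to 17.1 FPKM) and *Notch2* (7.93 to 12.7 FPKM) overlapped in their ranges, and *Notch3* ran from 3.71 to 13.2 FPKM. *Dll1*, a Delta ligand, was at 0.24 to 0.67 FPKM, with 15 to 40 counts per library. In bulk RNA, a change in level cannot be told apart from a change in the number of cells that carry the transcript.

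**Figure D1:**
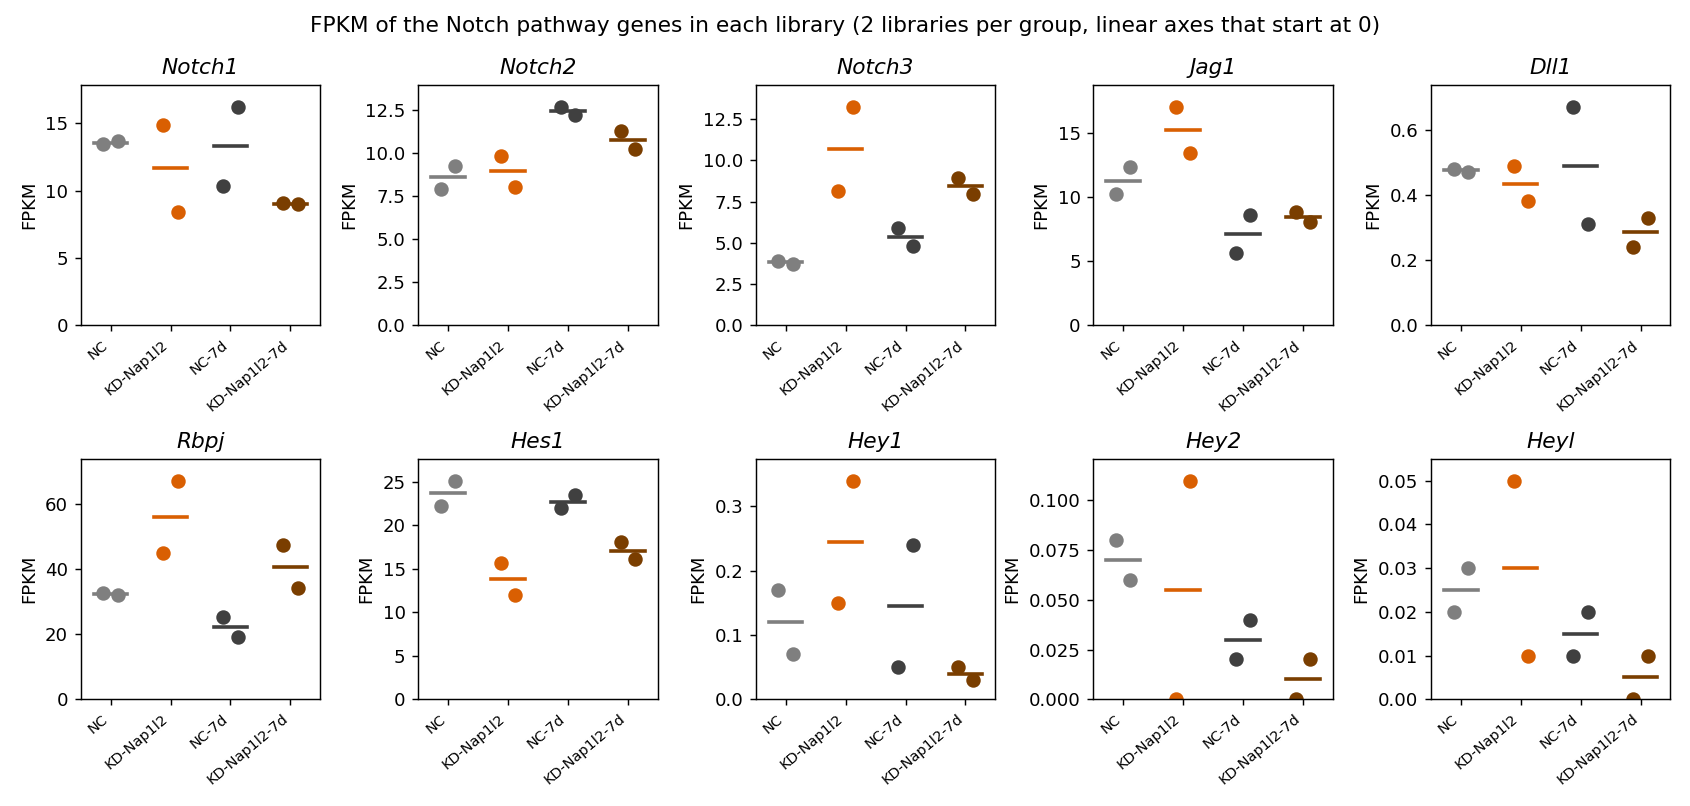
FPKM (vertical axes, linear, each from 0 to its own maximum) of the 10 Notch pathway genes in each library, with points for the 2 libraries of a group and a line at their mean. Notch3 and Rbpj lay higher and Hes1 lower in both KD-Nap1l2 groups than in both NC groups, while the Hey genes stayed at or under 0.34 FPKM.

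The Hey genes were at the edge of detection. *Hey1*, a hairy-related repressor downstream of Notch, had 7 and 3 counts in NC, 6 and 13 in KD-Nap1l2, 2 and 10 in NC-7d, and 2 and 1 in KD-Nap1l2-7d. *Hey2*, a related repressor of the heart and arteries, had 0 to 5 counts and *Heyl*, the remaining member of the family, 0 to 4 counts in a library. All 3 failed the filter on low counts, so 7 of the 10 genes were tested, and no difference in these 3 was detectable at this depth. A count of 0, as for *Hey2* in KD-Nap1l2 library 1, still allows up to 3 counts, or 0.168 CPM there, by counting error alone. *Hes1* thus made up 96.3% to 99.7% of the summed FPKM of the 4 targets. Other targets named after their values were seen were equally low, with 0 to 2 counts for *Nrarp*, a feedback inhibitor of Notch, and 0 to 1 for *Hes5*, a Hes repressor of neural progenitors.

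Whether the shRNA altered the pathway before induction was addressed by KD-Nap1l2 against NC. None of the 7 tested genes passed edgeR's quasi-likelihood test at an adjusted p under 0.05, against 0.0817% of all genes tested (11 of 13470). At an unadjusted p under 0.05 there were 3 of the 7, *Notch3*, *Rbpj* and *Hes1*, against 13.7% of all genes. The libraries of the groups did not overlap for 4 of the 7, against 43.2% of all genes, with *Notch3*, *Jag1* and *Rbpj* higher and *Hes1* lower in KD-Nap1l2. The median log2 fold change was 0.05 over the 7 genes and 0.01 over all genes tested.

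*Notch3* showed the largest difference of the 7. Its normalised read counts, scaled to a common library size, were 582 and 543 in NC, beside 1145 and 2031 in KD-Nap1l2, so that both KD-Nap1l2 libraries lay above both NC libraries but also far from each other. The log2 fold change was 1.50 (SE 0.26), with an adjusted p of 0.0858 in edgeR. DESeq2's Wald test called it with an adjusted p of 7.19e-06, where that tool called 3.64% of the genes it gave an adjusted p. Without KD-Nap1l2 library 2, the higher one, the log2 fold change was 1.02, and without library 1 it was 1.85. *Notch3* passed under 5 of the 17 settings tried, with adjusted p-values from 7.19e-06 to 0.409.

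*Hes1*, the best known repressor induced by Notch, had 588 and 652.5 normalised read counts in NC, beside 390.5 and 329 in KD-Nap1l2. Both KD-Nap1l2 libraries lay below both NC libraries, and the libraries of each group were close together. The log2 fold change was -0.79 (SE 0.14) with an adjusted p of 0.0947 in edgeR and 0.0041 in DESeq2. It passed under 3 of the 17 settings, and its adjusted p ran from 0.0041 to 0.409.

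*Rbpj* had 2946 and 2756 normalised read counts in NC, beside 3689 and 6179.7 in KD-Nap1l2. Its log2 fold change of 0.79 (SE 0.27) did not pass, with an adjusted p of 0.258 in edgeR, and it passed under 0 of the 17 settings. Leaving out KD-Nap1l2 library 2 brought it to 0.37. The estimated count of *Rbpj* was not a whole number in any of the 8 libraries, so some of its reads were shared with other genes and its level is uncertain to that extent.

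*Jag1*, the Jagged ligand that made up 88.2% to 95.9% of the summed FPKM of the 5 canonical ligands, had 1066 and 1272 normalised read counts in NC, beside 1676 and 1443 in KD-Nap1l2 (log2 fold change 0.42, SE 0.19, adjusted p 0.379 in edgeR). *Notch1* had 2386 and 2383 in NC but 2494 and 1538 in KD-Nap1l2, so that its NC values lay between those of the KD-Nap1l2 libraries. *Notch2* differed by a log2 fold change of 0.05 (SE 0.13) and *Dll1* by -0.15 (SE 0.43). None of these 4 genes passed under any setting tried.

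**Figure D2:**
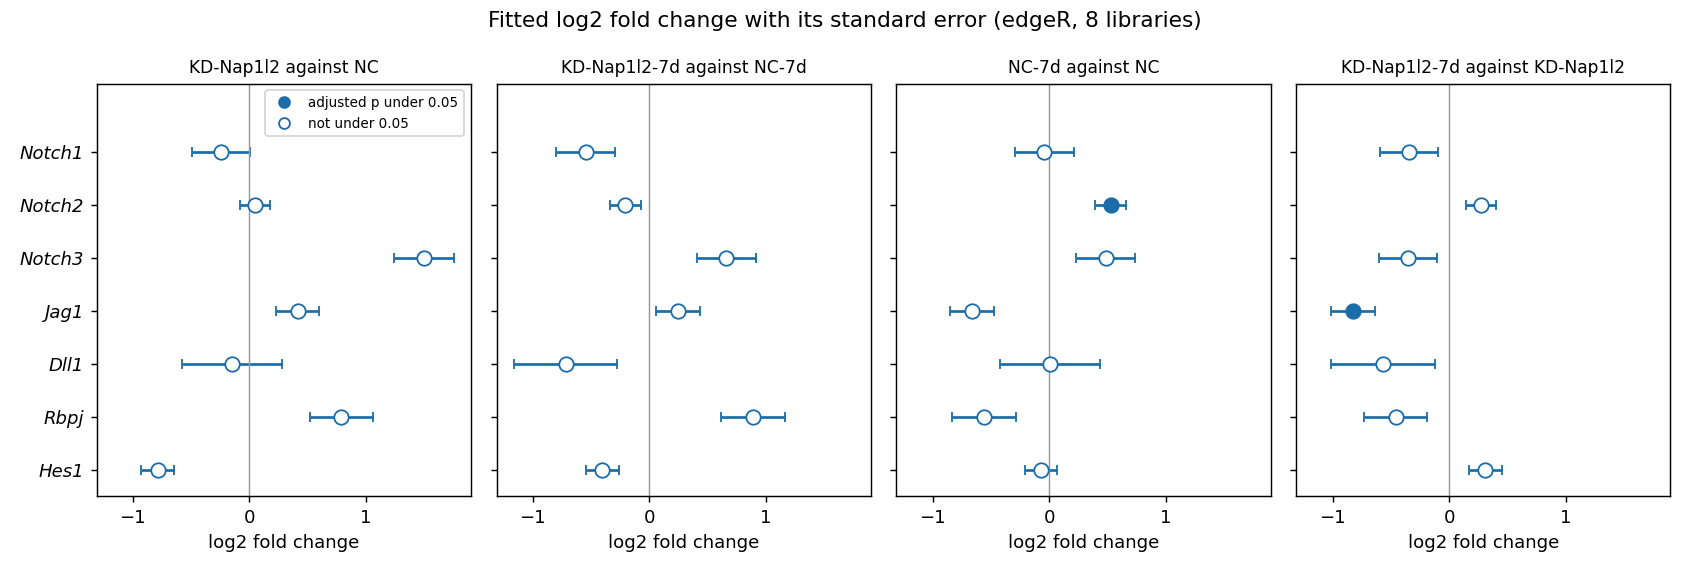
Fitted log2 fold change (horizontal axis) of the 7 tested genes in the knockdown contrasts and the induction contrasts, with bars of 1 standard error and filled points for an adjusted p under 0.05. The filled points are Notch2 in NC-7d against NC (0.53) and Jag1 in KD-Nap1l2-7d against KD-Nap1l2 (-0.83).

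After 7 days of induction, KD-Nap1l2-7d against NC-7d gave 0 calls among the 7 genes and 0.0% among all 13470 (0 genes by edgeR, and 82 or 0.674% by DESeq2, which called 0 of the 7). Again *Notch3*, *Rbpj* and *Hes1* were those with an unadjusted p under 0.05, 3 of 7 against 7.85% of all genes. *Notch3* had 883 and 692 normalised read counts in NC-7d and 1310.3 and 1179 in KD-Nap1l2-7d, and *Rbpj* had 2259.7 and 1611 against 4094 and 3080.5. *Hes1* had 586 and 595 in NC-7d and 470.2 and 423 in KD-Nap1l2-7d, and so was lower in both KD-Nap1l2-7d libraries. The log2 fold changes were 0.66 (SE 0.25) for *Notch3*, 0.89 (SE 0.27) for *Rbpj* and -0.40 (SE 0.14) for *Hes1*, with adjusted p-values in edgeR of 0.578, 0.519 and 0.552. *Notch1* and *Notch2* also lay lower in both KD-Nap1l2-7d libraries, which made 5 of the 7 genes without overlap, against 42.1% of all genes. Their log2 fold changes were -0.55 (SE 0.25) and -0.20 (SE 0.13), and neither passed under any setting tried.

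Over both time points, chosen as a comparison after the values had been seen, the 4 libraries labelled KD-Nap1l2 did not overlap with the 4 NC libraries for *Notch3*, *Rbpj* and *Hes1*, which is 3 of 7 against 4.12% of all genes tested. The genes too were chosen with earlier results of these data known, so this share describes them and is no test. The averaged log2 fold changes were 1.08 (SE 0.18) for *Notch3*, 0.84 (SE 0.19) for *Rbpj* and -0.59 (SE 0.10) for *Hes1*. Their adjusted p-values in edgeR were 0.0961, 0.133 and 0.0961, so none of the 7 passed, where 0.0594% of all genes did, and 4 of the 7 (*Jag1* added) had an unadjusted p under 0.05, where 14.7% of all genes did. DESeq2 called all 3, with adjusted p-values of 5.57e-06, 0.00112 and 0.00206, and called 3.69% of all genes. edgeR called all 3 once KD-Nap1l2 library 1 was left out, at 0.0102, 0.0279 and 0.0262, where it called 570.0 of all genes in place of 8. Over the 16 settings tried for this comparison, *Notch3* and *Hes1* passed under 3 and *Rbpj* under 2, and without KD-Nap1l2-7d library 1 the adjusted p was 0.453 for *Notch3* and *Hes1* and 0.518 for *Rbpj*. *Notch3* and its DNA-binding partner were thus highest, and the target *Hes1* lowest, in the same 4 libraries. The calls depended on the tool, the filter and the libraries. *Ccnd1*, a further target named after its values were seen, went the other way from *Hes1*. It had 13701 to 14710 normalised read counts in these 4 libraries and 9314 to 11497 in the 4 NC libraries. The 8 tested genes of its list of other targets had a median log2 fold change of 0.135 and 0 calls. Of 74 further pathway genes tested, 15 (20.3%) had an unadjusted p under 0.05 in edgeR, beside 14.7% of all genes.

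Sums of markers of other states also differed between NC and KD-Nap1l2, but overlapped between NC-7d and KD-Nap1l2-7d. The summed FPKM of 10 smooth muscle and pericyte markers was 764 to 958 in NC and 1020 to 1640 in KD-Nap1l2, but 376 to 756 in NC-7d and 334 to 440 in KD-Nap1l2-7d. Most of this sum was *Acta2*, with 891 and 695 FPKM in NC and 1556 and 923 in KD-Nap1l2. Of the other members, *Cspg4* was also higher, with 14.8 and 17.0 in NC and 24.9 and 30.6 in KD-Nap1l2. So was *Smtn*, with 33.1 and 36.2 and then 36.8 and 56.0. Others did not follow, such as *Lmod1* with 16.1 and 13.2 in NC and 16.1 and 10.5 in KD-Nap1l2. *Myh11* had 1.47 and 0.63 and then 0.70 and 0.57. Of this list, *Rgs5*, *Kcnj8*, *Myocd* and *Cnn1* stayed under 1 FPKM in all libraries, whereas *Cspg4* ran from 13.5 to 30.6 FPKM. The 10 interferon-stimulated genes examined summed to 2680 to 3940 FPKM in NC, 486 to 1210 in KD-Nap1l2, 705 to 3430 in NC-7d and 1850 to 2600 in KD-Nap1l2-7d. Their part in the values of *Notch3*, *Rbpj* and *Hes1* was not tested.

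The makeup of the receptors shifted with these values. *Notch3* gave 15.3% and 13.8% of the summed FPKM of *Notch1* to *Notch4* in NC, and 24.6% and 44.4% in KD-Nap1l2. After induction it gave 20.1% and 14.4% in NC-7d and 30.1% and 28.9% in KD-Nap1l2-7d, so each KD-Nap1l2 library exceeded each NC library in this share. *Notch1* gave 52.7% and 50.7% in NC, 35.4% and 48.6% in NC-7d, 45.1% and 28.2% in KD-Nap1l2, and 30.6% and 32.7% in KD-Nap1l2-7d, so that 1 NC-7d library lay within the range of the libraries labelled KD-Nap1l2, while *Notch4*, the receptor of endothelial cells, stayed at 0.470% to 1.35%. These shares were not tested.

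**Figure D3:**
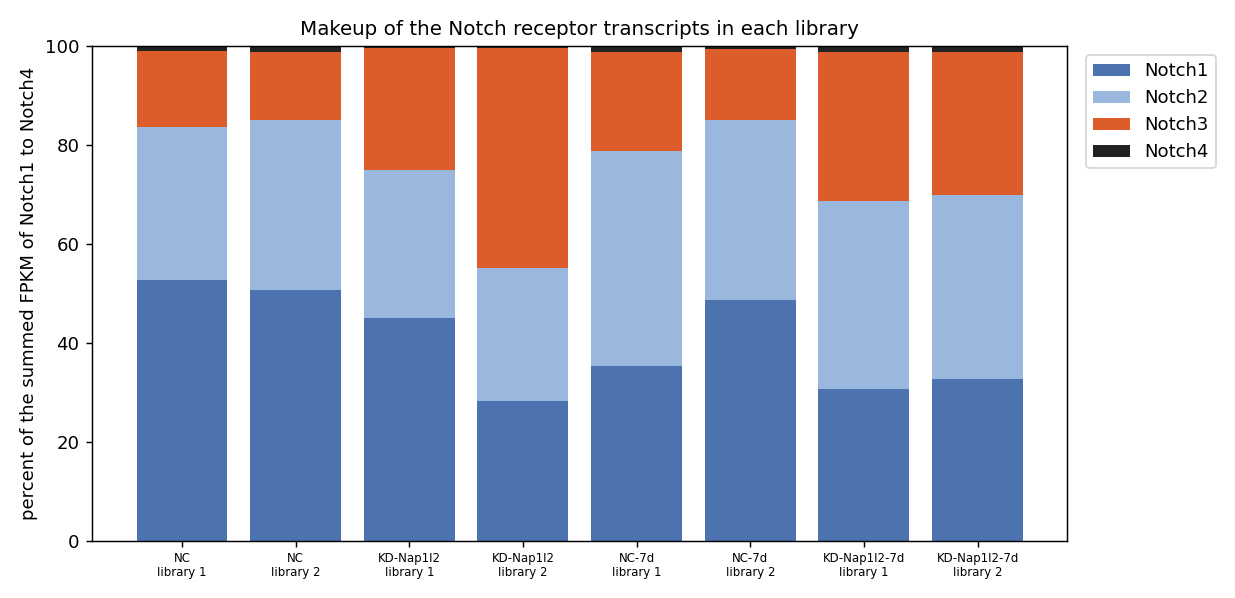
Share of each receptor (stacked bars, percent) in the summed FPKM of Notch1, Notch2, Notch3 and Notch4, for each of the 8 libraries. Notch3, in orange, took 13.8% to 20.1% in the NC and NC-7d libraries and 24.6% to 44.4% in those labelled KD-Nap1l2 and KD-Nap1l2-7d.

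What 7 days in osteogenic medium did to the pathway was addressed in NC and in KD-Nap1l2 cells in turn. Both are C3H10T1/2 cells, and the cell lines named below are these versions of that line. In NC-7d against NC, *Notch2* rose and was 1 of 7 genes called, where edgeR called 8.21% of all genes. At an unadjusted p under 0.05 there were 2 of the 7 (24.5% of all genes), and 4 of the 7 had groups without overlap (57.8%). In KD-Nap1l2-7d against KD-Nap1l2, *Jag1* fell and was also 1 of 7, where edgeR called 14.2% of all genes. It was the only one of the 7 at an unadjusted p under 0.05 (31.4% of all genes), and 4 of the 7 had groups without overlap (61.4%). DESeq2 called *Notch2* and *Jag1* in NC cells (11.5% of all genes) and *Jag1* in KD-Nap1l2 cells (17.7%). The median log2 fold changes of the 7 genes were -0.04 and -0.35 in these contrasts, beside -0.0035 and -0.0071 over all genes.

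*Jag1* had 1066 and 1272 normalised read counts in NC, 609 and 871 in NC-7d, 1676 and 1443 in KD-Nap1l2, and 915 and 844 in KD-Nap1l2-7d. Both induced libraries of each cell line lay below both uninduced ones. The fall in the KD-Nap1l2 cells was -0.83 on the log2 scale (SE 0.19, adjusted p 0.0269 in edgeR), and it passed under 12 of 17 settings. It was lost on leaving out KD-Nap1l2 library 1 or either KD-Nap1l2-7d library, and in limma on log2(FPKM + 1) and on log2(FPKM + 0.1), with adjusted p-values of up to 0.166. In NC cells the log2 fold change was -0.66 (SE 0.19), with an adjusted p of 0.0738 in edgeR and 0.026 in DESeq2. The difference between the fold changes of the cell lines was -0.17 (SE 0.26, adjusted p 0.916 in edgeR), so they were not shown to differ.

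*Notch2*, the receptor whose gain of function is known for bone loss, had 1557 and 1786 normalised read counts in NC, and 2516 and 2307 in NC-7d. The fitted change was 0.53 on the log2 scale (SE 0.13), with an adjusted p of 0.0481 in edgeR, close to the threshold, and it passed under 6 of 17 settings, with adjusted p-values from 0.0165 to 0.322. The call was lost when any of the 6 NC, NC-7d or KD-Nap1l2-7d libraries was left out. In KD-Nap1l2 cells it had 1824 and 1632 before and 2185.5 and 1999.7 after induction, a log2 fold change of 0.28 (SE 0.13, adjusted p 0.192 in edgeR). All 4 induced libraries lay above all 4 uninduced ones. The difference between the cell lines was -0.25 (SE 0.18, adjusted p 0.814 in edgeR).

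Averaged over both cell lines, a comparison added after the values had been seen, *Jag1* fell by 0.74 on the log2 scale (SE 0.13, adjusted p 0.00662 in edgeR) and *Notch2* rose by 0.40 (SE 0.09, adjusted p 0.0174), 2 of 7 genes where edgeR called 25.5% of all genes. *Jag1* passed under all 16 settings tried for this comparison and *Notch2* under 12, losing the call without NC library 1, NC-7d library 1 or either KD-Nap1l2-7d library. DESeq2 called these 2 and *Rbpj* (26.8% of all genes), the same 3 had an unadjusted p under 0.05 in edgeR (39.5%), and the groups did not overlap for the 2 genes, against 26.4% of all genes. Summed FPKM of 10 proliferation genes was 329 to 408 in NC and 222 to 408 in NC-7d, and 376 to 483 in KD-Nap1l2 and 248 to 266 in KD-Nap1l2-7d, and that of 10 adipocyte markers was 89.6 to 96.7 in the uninduced and 220 to 313 in the induced libraries. Of the adipocyte sum, *Fabp4* had 7.69 to 25.1 FPKM in the uninduced and 138 to 181 in the induced libraries, and *Pparg* had 17.2 to 20.9 and then 33.6 to 41.9. *Cebpa* had 1.50 to 4.29 and then 0.51 to 1.41, and *Adipoq*, *Plin1*, *Cidec* and *Car3* stayed under 1 FPKM everywhere. Their part in the fall of *Jag1* and the rise of *Notch2* was not tested.

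The other genes did not pass in either cell line. *Rbpj* had log2 fold changes of -0.56 (SE 0.27, adjusted p 0.253 in edgeR) in NC and -0.46 (SE 0.27, adjusted p 0.283) in KD-Nap1l2 cells. For *Hes1* they were -0.07 (SE 0.14) and 0.31 (SE 0.14), for *Notch1* -0.04 (SE 0.25) and -0.34 (SE 0.25), and for *Dll1* 0.00 (SE 0.43) and -0.57 (SE 0.45). *Notch3* differed most between the cell lines, with 0.48 (SE 0.26) in NC and -0.35 (SE 0.25) in KD-Nap1l2 cells. That difference of -0.84 (SE 0.36) had an unadjusted p of 0.0483 and an adjusted p of 0.703 in edgeR. None of the 7 genes passed this test of the difference, and neither did any other of the 13470 genes in edgeR (0.0%), of which 7.04% had an unadjusted p under 0.05, while DESeq2 called 97 genes (0.781%) and 0 of the 7.

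*Jag1* was the called gene with the largest range of group means, and the genes whose log2 levels followed *Jag1* most closely over the 8 libraries were sought among 11280 genes with a mean of at least 50 normalised counts. They were *Rbbp8*, a factor of DNA end resection (Pearson's r 0.974), *Pole2*, a subunit of DNA polymerase epsilon (r 0.969), *Tubgcp2*, of the γ-tubulin complex (r 0.966), *Slit2*, a secreted guidance ligand (r 0.966), and *Stard7*, a lipid transfer protein (r 0.953). *Slit2* spanned 1310 to 1574 normalised read counts in NC-7d and 3174 to 3644 in KD-Nap1l2. The libraries share their groups, so these values describe likeness only.

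At the transcript level, the deposited estimates list 1 transcript each for *Notch1*, *Notch2*, *Hey2* and *Heyl*, and several for the others. *Notch3* had the curated transcript NM_008716.2 and the predicted one XM_017317293.1. The predicted transcript took 5.73% and 7.04% of the *Notch3* counts in NC, 19.5% and 10.7% in KD-Nap1l2, 14.8% and 33.1% in NC-7d, and 16.3% and 13.6% in KD-Nap1l2-7d. The NC libraries thus had the lowest shares of the 8. The estimated split differed between libraries of the same group, most in NC-7d, and is uncertain to that extent. In NC-7d the curated transcript had 703 and 483 estimated counts beside 557 and 540 in NC, and the predicted one 122 and 239 beside 33.8 and 40.9.

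*Rbpj* had 7 transcripts, whose estimated split differed between libraries of the same group and is uncertain to that extent. NM_001277116.1 had 1550.2 and 1549 estimated counts in KD-Nap1l2, beside 2032 and 1461 in NC, but 2486 and 2079 in KD-Nap1l2-7d, beside 1322 and 875 in NC-7d. The predicted XM_006503797.3 had 640 and 2398 in KD-Nap1l2, beside 0 and 365 in NC, 0 and 220.2 in NC-7d, and 0 in both KD-Nap1l2-7d libraries. Its share thus ran from 0% to 40.4% of the counts, and from 17.0% to 40.4% within KD-Nap1l2 alone. XM_017320743.1 kept a share of 22.9% to 30.1% in all libraries, with 1135 and 1361 counts in KD-Nap1l2 and 722 and 832 in NC. The second transcripts of *Jag1* and *Hes1* stayed at or under 6.90% and 4.86%.

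Beyond the 10 genes, 87 further genes of the pathway were found in the table and 74 were tested. None was called by edgeR in either knockdown contrast, where all genes gave 0.0817% before and 0.0% after induction. Over induction 4 of 74 (5.41%) were called in NC cells, where all genes gave 8.21%, and 17 of 74 (23.0%) in KD-Nap1l2 cells, where all genes gave 14.2%. Of the 4, 3 rose (*Dtx4*, *Spen* and *Psen2*) and 1 fell (*Xxylt1*), and these were called with the same signs in KD-Nap1l2 cells, in which 7 rose and 10 fell. The difference between the cell lines was called for 0 of the 74. With 1 library left out, the counts called over induction moved both for these genes and for all genes. They thus depend on single libraries.

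Among regulators of receptor processing, *Dtx4*, a Deltex ubiquitin ligase, had 426.5 and 488 normalised read counts in NC and 1095 and 968 in NC-7d (log2 fold change 1.17, SE 0.18, adjusted p 0.00925 in edgeR). In KD-Nap1l2 cells it went from 275 and 387 to 805 and 845 (1.32, SE 0.18, adjusted p 0.00468). *Psen2*, a catalytic subunit of γ-secretase, rose by 0.72 (SE 0.16) and 0.69 (SE 0.15), whereas *Psenen*, another γ-secretase subunit and the most abundant gene of the protease list, did not pass. *Xxylt1*, a xylosyltransferase that extends sugars on Notch, fell by 0.66 (SE 0.16) and by 0.94 (SE 0.16). *Neurl1b*, a ubiquitin ligase for ligands, had 257 and 312 in KD-Nap1l2 and 32.1 and 76.2 in KD-Nap1l2-7d (-2.40, SE 0.54, adjusted p 0.0257 in edgeR). It was not called in NC cells, where it had 256 and 331 before and 71.7 and 208 after induction.

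In the nuclear complex, *Spen*, a corepressor that binds Rbpj, rose by 0.85 (SE 0.12) in NC and 0.73 (SE 0.12) in KD-Nap1l2 cells. *L3mbtl3*, another partner of Rbpj, fell in KD-Nap1l2 cells from 1784 and 1436 to 743 and 668 normalised read counts, a log2 fold change of -1.19 (SE 0.15, adjusted p 0.00345 in edgeR). *Maml2*, a Mastermind coactivator, fell there by 0.52 (SE 0.11) and the Groucho-type corepressor *Tle2* by 1.12 (SE 0.27). In NC cells these 3 did not pass, with log2 fold changes of -0.34, -0.35 and -0.84.

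Of the targets and non-canonical ligands, *Snai2*, a repressor known from mesenchymal transitions, went from 5368 and 3683 to 1445 and 1540.3 in KD-Nap1l2 cells (-1.60, SE 0.29, adjusted p 0.012 in edgeR), and *Hes6*, an atypical Hes protein, rose there by 0.67 (SE 0.15). *Nov*, a secreted matricellular protein that can bind Notch1, fell from 13567 and 14924 to 1359 and 1906 (-3.12, SE 0.56, adjusted p 0.0122). *Mfap5*, a microfibril protein, fell there by 2.33 (SE 0.51). In NC cells edgeR called none of these genes, but their mean normalised read counts moved the same way. They went from 3951 to 2370 for *Snai2* and from 312 to 467 for *Hes6*. For *Nov* they went from 6762 to 2176, and for *Mfap5* from 746 to 411. The most abundant genes of the lists for targets and further repressors, *Cdkn1a* (129 to 354 FPKM) and *Bhlhe40* (13.2 to 68.0 FPKM), passed in none of the 5 contrasts in edgeR, and *Jag2*, the most abundant of the 3 further canonical ligands, had 0 to 15 counts. Estimated counts were not whole in all 8 libraries for *Nov*, *Mfap5*, *Snai2* and *Maml2*, in 6 for *Dtx4* and *Tle2*, in 5 for *Neurl1b* and in 4 for *Spen*, so part of their reads were shared with other genes and their levels are uncertain to that extent.

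**Figure D4:**
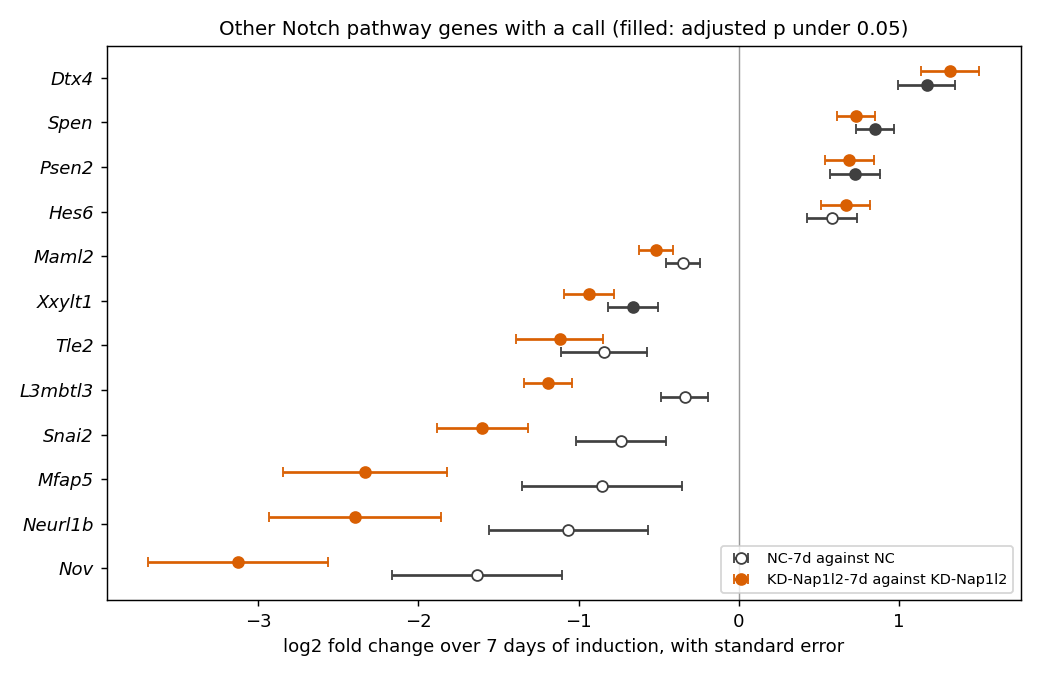
Log2 fold change over 7 days of induction (horizontal axis, bars of 1 standard error) of the 12 further pathway genes with the smallest adjusted p-values, in NC cells (dark) and KD-Nap1l2 cells (orange), with filled points for an adjusted p under 0.05. Dtx4, Spen and Psen2 rose and Xxylt1 fell with filled points in both, and Nov had the largest fall, by 3.12 in KD-Nap1l2 cells.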

How the data were processed

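Total RNA of 8 C3H10T1/2 libraries was prepared and sequenced at BGI. The submitters' processing notes name BWA, Bowtie2, RSEM and GRCm38.p6 without roles or versions. The authors deposited, for each gene and transcript, the estimated count as their counting program gave it, without normalization, and 41.1% of genes have at least 1 fractional value. The deposited FPKM values are these counts scaled to gene length and library. No log2 fold changes, p-values or q-values from the authors' own comparisons were used.

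Counts were rounded and scaled by TMM, and filterByExpr kept 13470 of 18605 genes. One edgeR 4.0.16 model (R 4.3.3) over the 8 libraries, with a spread common to the groups, gave two-sided quasi-likelihood tests of each contrast. Calls are Benjamini-Hochberg adjusted p-values under 0.05, and standard errors were taken from the log2 fold change and its F statistic. Normalised read counts are TMM-scaled CPM brought to the mean library size. Alternatives were DESeq2 1.42.0, RLE factors, no filter, a filter at 10 counts in each library, the compared libraries fitted alone, a block for the replicate number, limma 3.58.1 on log2(FPKM + 1) and log2(FPKM + 0.1), and leaving out each library, where the lone library of a group is assumed to vary like the others. The averaged contrasts were added after seeing the data. The scripts were checked on simulated counts. With 17420284 to 19427359 counts per library, a count of 0 allows 3 counts, or 0.154 to 0.172 CPM, by counting error only.

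The 10 genes and all lists were chosen with earlier results of these data known. Named beyond the 10 were up to 12 called pathway genes by smallest adjusted p, the gene of highest mean FPKM in each role list, the 5 genes most like *Jag1*, and *Nap1l2*. *Nrarp*, *Hes5* and *Ccnd1* were named after their values were seen. The genes of highest FPKM not given above were *Aes*, *Poglut1* and *Nedd4*, none of which passed. Sequences came from RefSeq windows by gene symbol, and *Hes1*, *Hey1* and *Heyl* had no entry used here. Python 3.11.15 and matplotlib 3.10.9 were used.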

Additional observations from a re-analysis of the deposited data

How the results depend on the processing

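Among the log2 fold changes of the 7 tested genes in the 5 contrasts not averaged and the 6 averaged ones whose calls are described above for *Notch3*, *Rbpj*, *Hes1*, *Jag1* and *Notch2*, 292 values under other tools, filters and scalings and 289 with 1 library left out kept their direction and their side of the threshold, 7 and 13 lost a call, 11 and 10 gained one, and 5 and 16 changed sign. For *Dll1* in NC-7d against NC, DESeq2 gave -0.00034, RLE factors -0.0028, at least 10 counts in every library -0.011 and limma on log2(FPKM + 0.1) -0.033. With 1 library left out, the ranges that crossed 0 were -0.63 to 0.064 for *Notch1* and -0.048 to 0.15 for *Notch2* in KD-Nap1l2 against NC. In NC-7d against NC they were -0.36 to 0.22 for *Notch1*, -0.63 to 0.46 for *Dll1* and -0.14 to 0.0072 for *Hes1*. In KD-Nap1l2-7d against KD-Nap1l2 they were -0.65 to 0.046 for *Notch1* and -0.71 to 0.12 for *Notch3*, which passed at an adjusted p of 0.0348 in edgeR when KD-Nap1l2 library 1 was left out. For the difference between the cell lines they were -0.61 to 0.085 for *Notch1*, -0.40 to 0.11 for *Jag1*, -1.02 to 0.060 for *Dll1* and -0.23 to 0.52 for *Rbpj*. Of the averaged values not in this tally, those over induction for *Notch3* (-0.11 to 0.30) and *Notch1* (-0.35 to 0.0031) crossed 0 over all settings.

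The number of all genes called in KD-Nap1l2 against NC moved from 11 to 462 in DESeq2, 160.0 without a filter, 4 with at least 10 counts in every library, 0 in a fit of the 4 libraries alone, 33 in limma on log2(FPKM + 1) and 18 on log2(FPKM + 0.1). The calls among the 10 genes moved from 0 to 2 in DESeq2 and 2 without a filter, and among the further pathway genes from 0 to 3 in DESeq2. DESeq2 called 82 genes in place of 0 in KD-Nap1l2-7d against NC-7d and 97 in place of 0 for the difference between the cell lines, where no filter gave 1. The 1 call among the 10 genes in NC-7d against NC became 2 in DESeq2 and 0 without a filter, in the fit of the compared libraries alone and in both limma fits. That in KD-Nap1l2-7d against KD-Nap1l2 became 0 in both limma fits. Averaged over both times, the knockdown calls moved from 8 to 478 in DESeq2, 131 without a filter, 0 with at least 10 counts in every library and 22 in limma on log2(FPKM + 1), and those among the 10 genes from 0 to 3 in DESeq2 and 2 without a filter. The cause of these moves was not tested.

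With 1 library left out, the calls in KD-Nap1l2 against NC ran from 0 to 562 over all genes, from 0 to 2 among the 10 and from 0 to 3 among the further pathway genes, each highest without KD-Nap1l2 library 1. They ran from 0 to 1 over all genes in KD-Nap1l2-7d against NC-7d. In NC-7d against NC they ran from 122 to 1490.0, from 0 to 1 and from 0 to 10, with 122 without NC library 1, and in KD-Nap1l2-7d against KD-Nap1l2 from 305 to 2218, from 0 to 1 and from 2 to 21, lowest without either KD-Nap1l2-7d library. The difference between the cell lines ran from 0 to 19, the averaged knockdown contrast from 0 to 570.0 and from 0 to 3, and the averaged induction contrast from 1684 to 3918 and from 1 to 3.

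The replicate numbers did not pair the libraries, since the correlations of same-numbered libraries ran from -0.0612 to 0.104. With the number as a replicate block, the calls in KD-Nap1l2 against NC moved from 11 to 4, the averaged knockdown calls from 8 to 2, the call among the 10 genes in NC-7d against NC from 1 to 0, and *Dll1* there to -0.021. Counts of 15 or fewer in *Nap1l2*, *Hey1*, *Hey2* and *Heyl* limit what can be said of them.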
